A study of Homo sapiens with 2 samples.

Results

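Single-cell RNA was measured in 2 libraries of H9 cells, an established line of human embryonic stem cells kept in a naive state, and the cells described here are those with the most RNA of 8 mitosis genes. They were chosen among ordinary cells, meaning barcodes with at least 1000 detected genes and with 2% to below 20% of their unique molecular identifiers (UMIs, the tags that count single RNA molecules) from mitochondrial genes. In each library, the 10% of these cells with the highest summed UMIs of CCNB1, CDC20, PLK1, CENPE, CENPF, AURKA, UBE2C and TOP2A, divided by the cell's total, were taken and are called mitotic cells, so they were chosen by the counts of these 8 genes. This gave 655 of 6553 ordinary cells in the ASO-L1 library and 469 of 4696 in the SO-L1 library, together 1124 cells of 24729 barcodes in the series. Each set was compared with the 50% of ordinary cells of its own library with the lowest share, 3276 and 2348 cells, called low-share cells.

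The ASO-L1 cells had received an oligonucleotide antisense to LINE1 RNA, and the SO-L1 cells its sense control. Both were transfected at 25 nM into cells grown in RSeT with DZNep (10 nM) and TSA (5 nM), carried a fluorescein dye by which 100000 positive cells were sorted at 48 hours, and had trans-ISRIB (0.7 µM), emricasan (5 µM) and Y-27632 (10 µM) around them for the first 24 hours. TSA inhibits histone deacetylases and DZNep lowers histone methylation, and both cultures held them. Each group is 1 library of 1 cell line, so no difference has a replicate check, no p-value is given, and every interval (95%, exact) covers counting error only.

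A dividing cell copies its DNA in S phase and parts the copies in mitosis. Cyclin B (CCNB1) with the kinase CDK1 starts mitosis, the kinases PLK1 and AURKA build the spindle, CENPE and CENPF sit at the kinetochores that hold the chromosomes, TOP2A untangles DNA, and CDC20 and UBE2C let the anaphase-promoting complex destroy cyclin B so that the cell can leave mitosis. Transcripts of these genes build up in G2, before mitosis begins, so RNA counts alone do not tell G2 cells and mitotic cells apart. In embryonic stem cells the cycle is fast and G1 is short.

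Many of these genes carry the same short sequences in front of their start. A pair of elements, the cell cycle genes homology region (CHR, written TTTGAA or TTTAAA) and the CCAAT box, is known from them, and the E2F site (TTTGGCGC, TTTCGCGC or TTTCCCGC) from S phase genes. The promoters of PLK1, CDC20 and CCNB1, which belong to the rule, and of KIF23, which does not, are shown because they hold the first pair. Those of PCNA and MCM2, S phase genes that were lower in the mitotic cells, are shown for contrast. Each sequence runs from 100 bases before to 50 bases after the start in RefSeq's table for GRCh38.p14, read 5′ to 3′ on the gene's strand. Capitals mark CHR and CCAAT letters in the first 4 and E2F and CCAAT letters in the last 2, on either strand.
PLK1: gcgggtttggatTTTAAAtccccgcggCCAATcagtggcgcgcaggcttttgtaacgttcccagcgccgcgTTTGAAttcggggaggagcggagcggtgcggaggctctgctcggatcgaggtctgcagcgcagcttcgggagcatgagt
CDC20: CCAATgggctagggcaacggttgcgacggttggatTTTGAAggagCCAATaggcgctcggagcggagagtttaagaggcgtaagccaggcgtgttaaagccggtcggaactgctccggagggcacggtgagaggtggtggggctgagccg
CCNB1: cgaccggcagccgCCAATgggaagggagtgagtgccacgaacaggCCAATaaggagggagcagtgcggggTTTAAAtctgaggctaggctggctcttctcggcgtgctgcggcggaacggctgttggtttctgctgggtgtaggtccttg
KIF23: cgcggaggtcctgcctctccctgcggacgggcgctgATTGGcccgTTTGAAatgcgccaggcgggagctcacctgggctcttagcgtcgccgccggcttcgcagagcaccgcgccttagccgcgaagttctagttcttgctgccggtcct
PCNA: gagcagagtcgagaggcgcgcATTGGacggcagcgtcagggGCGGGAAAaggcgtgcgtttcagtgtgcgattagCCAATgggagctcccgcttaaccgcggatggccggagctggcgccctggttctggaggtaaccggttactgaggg
MCM2: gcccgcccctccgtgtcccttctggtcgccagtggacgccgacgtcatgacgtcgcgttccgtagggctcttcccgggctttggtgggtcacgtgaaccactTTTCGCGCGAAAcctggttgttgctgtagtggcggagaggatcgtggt

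They lie at chr16:23678789-23678938 (plus strand) for PLK1, chr1:43358881-43359030 (plus) for CDC20, chr5:69167050-69167199 (plus) for CCNB1, chr15:69414249-69414398 (plus) for KIF23, chr20:5126573-5126722 (minus) for PCNA and chr3:127598311-127598460 (plus) for MCM2. In CCNB1 the CHR letters begin 30 bases before the start and the CCAAT letters 87 and 55 bases before it. In CDC20 the CHR letters at 65 bases lie between CCAAT letters at 100 and 55 bases. MCM2 holds its E2F letters on both strands, overlapping each other, beginning 2 and 6 bases after the start.

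Before the results, the barcodes need a word. The libraries shared 6105 barcode sequences, 52.4% of those in ASO-L1 and 46.7% of those in SO-L1. In SO-L1, 5292 of these held at least 10 times more UMIs in ASO-L1, and 5037 of them had under 1000 genes. The ordinary SO-L1 cells included 212 such barcodes (4.51%), and the SO-L1 mitotic cells 74 of 469 (15.8%), whose median depth was 1714 UMIs in SO-L1, against 125920 for the same sequences in ASO-L1. In ASO-L1, 2 ordinary cells and 0 mitotic cells were of this kind. These 74 make up most of the 79 SO-L1 mitotic cells under 10000 UMIs, while ASO-L1 had 23 mitotic cells so shallow, 0 of them found in SO-L1 too. In levels and ratios, where UMIs are summed over cells, these shallow cells add little to the total, but in shares and medians over cells each counts as 1. The ratio of a gene with few SO-L1 UMIs can still change with them, as given for ALPP between the libraries below. Without such barcodes the SO-L1 set was 448 cells, and 287 genes were at least 1.5-fold higher and 750 lower than in the low-share cells, against 280 and 752 with them.

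The share that chose the cells is a continuous scale with no gap at the bound. In CPM, a gene's UMIs per 1000000 UMIs of the cell or of the cells summed, the last member held 2090.498 of the 8 genes and the next cell 2090.472 in ASO-L1, against 1765.579 and 1765.554 in SO-L1, and 303 ASO-L1 and 278 SO-L1 cells lay within 5% of the bound. The bound therefore cuts through a range of the share. Because it was set by rank, it would fall between close neighbours with or without a separate type. These values cannot decide whether the mitotic cells are a separate type. Mitotic cells were deeper than the low-share cells, with a median of 65258 UMIs in ASO-L1 mitotic cells against 49820 in its low-share cells, and of 55565 in SO-L1 mitotic cells against 41441. The median mitochondrial share was 6.57% in mitotic cells and 7.40% in low-share cells of ASO-L1, and 8.44% in mitotic cells and 8.86% in low-share cells of SO-L1.

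The 8 genes that chose the cells are given as a description. UBE2C, the ubiquitin-conjugating enzyme of the anaphase-promoting complex, held 481 CPM in ASO-L1 mitotic cells against 70.6 in the low-share cells, and 225 in SO-L1 mitotic cells against 33.8. PLK1 held 266 against 37.8 in ASO-L1 and 186 against 34.2 in SO-L1. AURKA held 220 against 38.5 in ASO-L1 and 176 against 35.5 in SO-L1. TOP2A was 5.50-fold higher in ASO-L1 and 5.99-fold in SO-L1, and these 4 genes had the steepest contrast of the 8 in both libraries. CCNB1 was 2.89-fold higher in ASO-L1 and 2.18-fold in SO-L1, and CENPF 3.36-fold and 3.93-fold. CENPE and CDC20 differed most between the libraries in this respect, CENPE with 2.31-fold in ASO-L1 and 3.42-fold in SO-L1, CDC20 with 4.20-fold in ASO-L1 and 2.34-fold in SO-L1.

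The mitotic cells of the libraries were also made up differently from cell to cell. UBE2C was the most abundant of the 8 genes in 36.3% of ASO-L1 mitotic cells and 3.62% of SO-L1 mitotic cells, where CENPF led in 43.1% and CCNB1 in 29.4%. A UMI of every one of the 8 genes was found in 52.7% of ASO-L1 mitotic cells, fewer than the 75.6% of the next decile, although the mitotic cells rank higher. In SO-L1 it was 80.8% against 92.3% in the next decile, but among cells of at least 10000 UMIs it was 97.2% of 390 mitotic cells against 95.6% of 453 in the next decile, so the order in SO-L1 turned with the shallow cells. With the same minimum it was 54.6% of 632 ASO-L1 mitotic cells against 77.2% of 641 in the next decile, and UBE2C led in 36.7% of ASO-L1 and 1.28% of SO-L1 mitotic cells. Among low-share cells of any depth, a UMI of every one of the 8 genes was found in 25.8% in ASO-L1 and 20.7% in SO-L1. The median ASO-L1 mitotic cell held 31 UMIs of UBE2C, 24 of CCNB1 and 1 of CENPE, and 10% of these cells held at least 41 UMIs of CDC20, with a highest of 222. The median SO-L1 mitotic cell held 11 UMIs of UBE2C, 17 of CCNB1 and 5 of CENPE, and its highest CDC20 count was 28.

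Cells of other kinds were looked for by their markers. The summed level of POU5F1, SOX2 and NANOG, the core pluripotency factors, was 1138 CPM in ASO-L1 mitotic cells and 1322 in the low-share cells, and 1380 in SO-L1 mitotic cells and 1314 in the low-share cells. The 4 trophectoderm markers summed to 5.11 CPM in ASO-L1 mitotic cells against 2.73 in the low-share cells, most of it KRT7 (3.85 against 1.67), and to 2.34 in SO-L1 mitotic cells against 2.61. Of these, CDX2 was at 0 in both sets of mitotic cells and GATA3 had 7 UMIs in ASO-L1 and 0 in SO-L1. The fibroblast markers summed to 17.4 CPM in ASO-L1 mitotic cells against 21.9 in the low-share cells, and to 21.6 in SO-L1 mitotic cells against 21.7, nearly all of it COL1A1 and COL1A2, while COL3A1 was at 0 in both sets of mitotic cells. The neural markers summed to 3.72 CPM in ASO-L1 mitotic cells against 4.29, and to 4.59 in SO-L1 mitotic cells against 3.15, from PAX6, while SOX1 had 0 UMIs in ASO-L1 and 1 in SO-L1 mitotic cells. The summed mesendoderm markers stood at 106 CPM in ASO-L1 mitotic cells against 39.3 in the low-share cells, most of it CER1, and at 13.6 in SO-L1 mitotic cells against 15.1. Markers of the 8-cell stage (8C) stood at 16.4 CPM in ASO-L1 mitotic cells against 1.18 in the low-share cells, and at 0.397 in SO-L1 mitotic cells against 0.489.

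**Figure D1:**
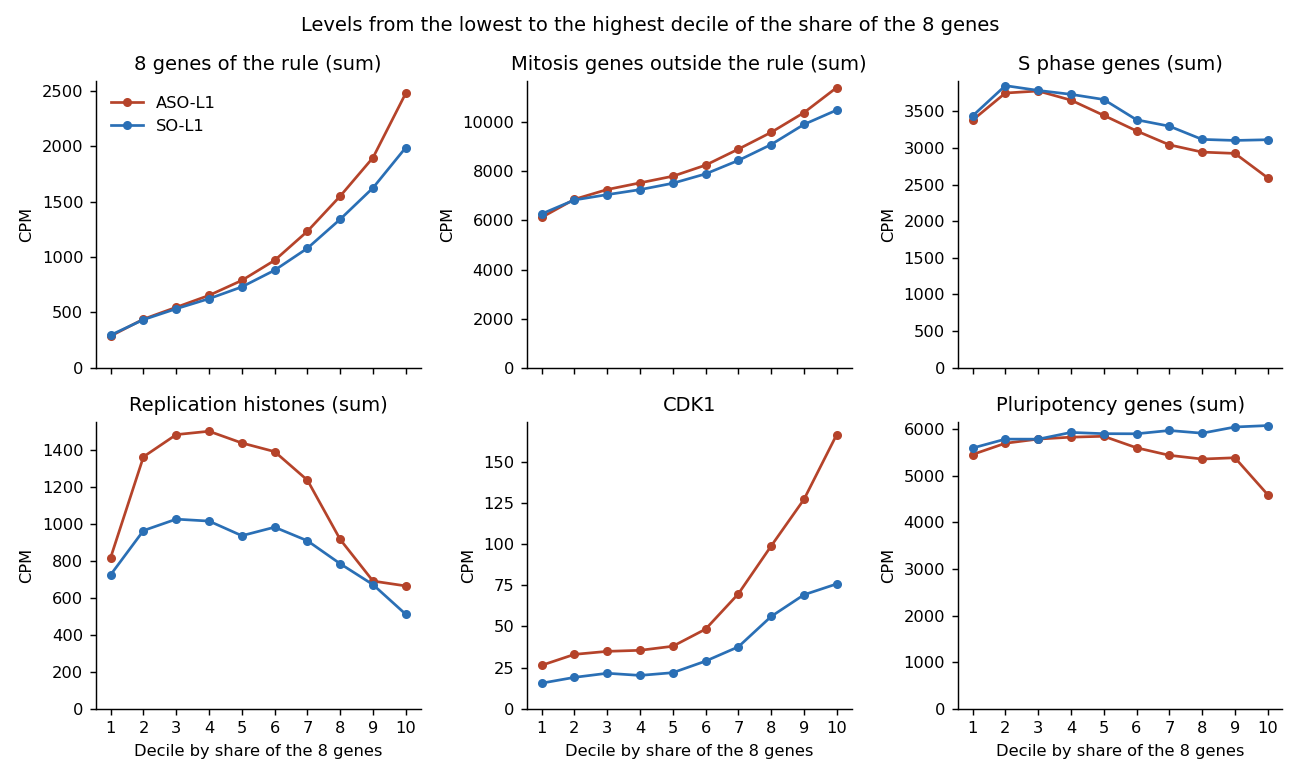
Summed CPM (vertical axes, from 0) in each decile of ordinary cells from the lowest to the highest share of the 8 rule genes (horizontal axes), ASO-L1 in red and SO-L1 in blue. The 133 mitosis genes outside the rule climb to 11415 in the highest ASO-L1 decile and 10498 in the highest SO-L1 decile, while S phase genes peak in decile 2 or 3 and are lowest near the top.

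Mitosis genes that the rule did not use were higher in the mitotic cells of both libraries. A gene counted as measured from 200 UMIs over the sets compared and as higher or lower from 1.5-fold. Of 133 such genes, 63 were higher and 2 lower than in the low-share cells in ASO-L1 (median log2 ratio 0.54), where 6.46% of all 16149 genes measured were higher and 12.8% lower. In SO-L1, 66 were higher and 0 lower (median 0.58), where 1.91% of 14674 genes were higher and 5.12% lower. Of these genes, 59 were higher in both libraries, 93.7% of the ASO-L1 genes and 89.4% of the SO-L1 genes. The cells were ranked on 8 genes of the same process in the same libraries, so the counts describe what else was high in the cells chosen and are no test.

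Cyclins, kinases and their partners had 13 of 17 members higher in ASO-L1 and 11 in SO-L1. CDK1, the kinase that cyclin B switches on, held 166 CPM in ASO-L1 mitotic cells against 33.9 in the low-share cells (4.91-fold, 4.74 to 5.09), and 75.8 in SO-L1 mitotic cells against 19.9 (3.82-fold, 3.57 to 4.08). Its level lay between 26.4 and 38.0 CPM over the lower 5 deciles of ASO-L1 and between 15.6 and 21.9 over those of SO-L1, and climbed in each decile above in both. CCNF, a cyclin that marks proteins for destruction in G2, was 3.56-fold and 2.94-fold higher in ASO-L1 and SO-L1, and CKS2, a CDK1 subunit, 2.96-fold and 2.31-fold. CCNA2, the cyclin of S phase and G2, was only 1.67-fold and 1.60-fold higher. WEE1, which holds CDK1 inactive before mitosis, was 2.14-fold and 1.84-fold higher, and CDC25A, its opponent that also acts in S phase, stood at 0.747 and 0.821 times.

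Kinesins and spindle proteins had 21 of 25 members higher in ASO-L1 (median 1.003) and 22 of 25 in SO-L1 (median 1.16). KIF23, a kinesin of the midzone and the cleavage furrow, was 3.72-fold higher in ASO-L1 and 3.80-fold in SO-L1. KIF20A, its neighbour in the midzone, was 4.24-fold and 3.32-fold higher. TPX2, which activates AURKA on the spindle, held 279 CPM against 79.3 in ASO-L1 and 261 against 84.7 in SO-L1. KIF11, which pushes the spindle poles apart, stood just under the threshold in ASO-L1, at 1.496-fold, and was 2.02-fold higher in SO-L1. KIF15, a motor with a related task, was near equal at 0.982 times in ASO-L1 and 1.15-fold in SO-L1.

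Of the kinetochore, checkpoint and passenger genes, 13 of 27 were higher in ASO-L1 and 16 in SO-L1. Among those high in both were NDC80, a microtubule binder, at 2.31-fold and 2.42-fold, TTK, a checkpoint kinase, at 2.21-fold and 2.11-fold, and SGO2, a guard of cohesion, at 2.95-fold and 2.94-fold. The passenger genes AURKB (2.88-fold and 2.17-fold), INCENP (2.87-fold and 2.89-fold) and CDCA8 (2.73-fold and 2.42-fold) were high as well. BIRC5, survivin, the fourth subunit, was 1.505-fold and 1.56-fold higher. CENPA, the histone that marks centromeres and is made in G2, was 3.38-fold and 2.45-fold higher. Of genes of the centromere's standing complex, CENPK stood at 0.703 and 0.962 times, CENPN at 1.18-fold and 1.17-fold, and CENPM at 0.611 and 1.07 times.

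**Figure D2:**
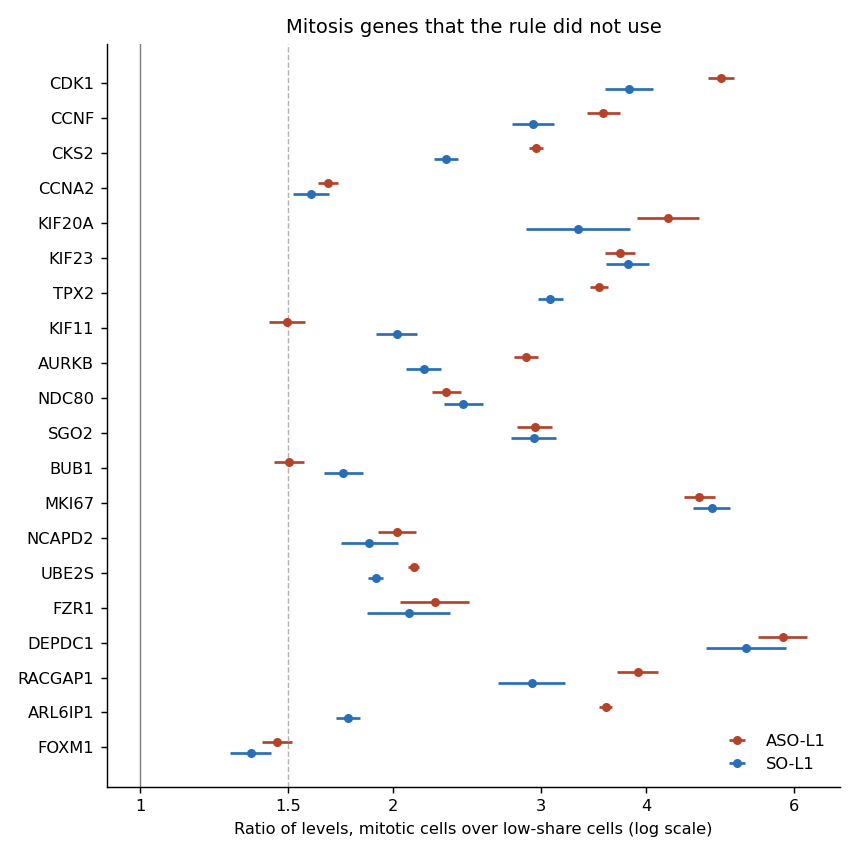
Ratio of summed CPM, mitotic cells over the low-share cells (horizontal, log scale), for 20 mitosis genes that the rule did not use, ASO-L1 in red above SO-L1 in blue, with 95% intervals for counting error. DEPDC1, CDK1 and MKI67 lie farthest right in both libraries, and FOXM1 stays left of the dashed 1.5-fold line in both.

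Cytokinesis genes had 9 of 11 members higher in both libraries. DEPDC1 was 5.81-fold higher in ASO-L1 and 5.25-fold in SO-L1. RACGAP1, a subunit of the midzone complex that KIF23 belongs to, was 3.91-fold and 2.92-fold higher. ARL6IP1, an endoplasmic reticulum shaping gene, was 3.58-fold higher in ASO-L1 (3.52 to 3.64) and 1.76-fold in SO-L1 (1.71 to 1.82), a difference between 2 single libraries. Chromosome structure genes had fewer, 4 and 5 of 17. MKI67, the coat of mitotic chromosomes and a common label of dividing cells, was 4.63-fold and 4.79-fold higher, and the condensin I gene NCAPD2 2.02-fold and 1.87-fold. The condensin II gene NCAPG2 (1.07 and 0.971 times) and the cohesin gene SMC3 (1.27-fold and 1.22-fold) were near equal.

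Other parts of the mitotic machinery followed less. Subunits of the anaphase-promoting complex had 3 of 17 higher (17.6%) and 1 lower in ASO-L1 and 2 higher (11.8%) in SO-L1. Of all genes measured, 6.46% were higher in ASO-L1 and 1.91% in SO-L1. The subunits higher in both were FZR1, its late activator, at 2.24-fold and 2.09-fold, and UBE2S, its second conjugating enzyme, at 2.12-fold and 1.91-fold. The fixed subunits ANAPC7 (1.09 and 0.990 times) and ANAPC11 (0.906 and 1.11 times) were near equal. Centriole and centrosome genes had 0 of 12 higher in ASO-L1 and 1 in SO-L1, the highest being NEDD1 at 1.35-fold in ASO-L1 and CEP70 at 1.54-fold in SO-L1. The regulators that switch on these genes had 0 of 7 in either library, with FOXM1, a transcription factor, at 1.45-fold and 1.35-fold, and MYBL2, its partner, at 1.31-fold and 1.002 times.

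The CHR letters were commoner in front of the genes that were higher in both libraries. In the window from 100 bases before to 50 after the start, they were found in 71.9% of the 57 rule and mitosis genes matched to the promoter table that were higher in both, in 36.8% of the 68 matched others, in 5.88% of 34 S phase genes and in 11.3% of all 27305 promoters. At least 2 CCAAT boxes in the 300 bases held by the table were found in 43.9%, 27.9%, 35.3% and 11.3% of the same sets. CHR letters in the narrow window together with at least 2 CCAAT boxes were found in 35.1%, 10.3%, 2.94% and 1.34%. The E2F letters in the 300 bases were found in 5.26%, 16.2%, 52.9% and 2.79%. Both strands were searched, and TTTAAA reads the same on both. The shares are a description, since the genes were listed for their known roles and sorted by values shown above, and a match is no evidence of a bound site. The rule genes among the 57 were high because they chose the cells, and the shares were not taken without them.

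S phase genes ran the other way. Of 45, 0 were higher and 21 (46.7%) lower in ASO-L1 mitotic cells (median log2 ratio −0.56), where 12.8% of all genes were lower. In SO-L1 mitotic cells 0 were higher and 8 (17.8%) lower (median −0.35), where 5.12% of all genes were lower. MCM2, a subunit of the replicative helicase, held 13.6 CPM in ASO-L1 mitotic cells against 28.3 in the low-share cells, and 14.8 in SO-L1 mitotic cells against 20.2. PCNA, the sliding clamp of the polymerases, stood at 0.610 and 0.739 times. UHRF1, which carries DNA methylation through replication, stood at 0.349 and 0.599 times. CCNE2, a cyclin of S phase entry, had the lowest ratio in SO-L1 at 0.241 times and stood at 0.360 in ASO-L1, on few UMIs. RRM2, a nucleotide-making enzyme that is kept into G2, was at 0.886 and 1.02 times. Summed over cells, these genes peaked in decile 2 in SO-L1 (3852 CPM) and decile 3 in ASO-L1 (3778 CPM), and the medians over mitotic cells were 2488 CPM in ASO-L1 and 3097 in SO-L1.

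Replication histone genes, whose RNA is made during DNA synthesis and destroyed at its end, were lower still. All 13 measured in ASO-L1 were lower (median −1.46), and 10 of 11 in SO-L1 (median −1.07), beside 12.8% and 5.12% of all genes. Their messages mostly lack a poly(A) tail, which the 3′ chemistry needs, so the counts are of the tailed fraction only. HIST1H1D, a linker histone gene, stood at 0.176 times in ASO-L1 and 0.255 in SO-L1. HIST1H4C, a core histone gene, held 571 CPM in ASO-L1 mitotic cells against 1060 in the low-share cells and stood at 0.567 times in SO-L1. H2AFX, a variant with both kinds of message, was 1.62-fold and 1.86-fold higher, and HMGB2, a chromatin protein gene with a G2 peak, 1.58-fold and 1.53-fold.

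**Figure D3:**
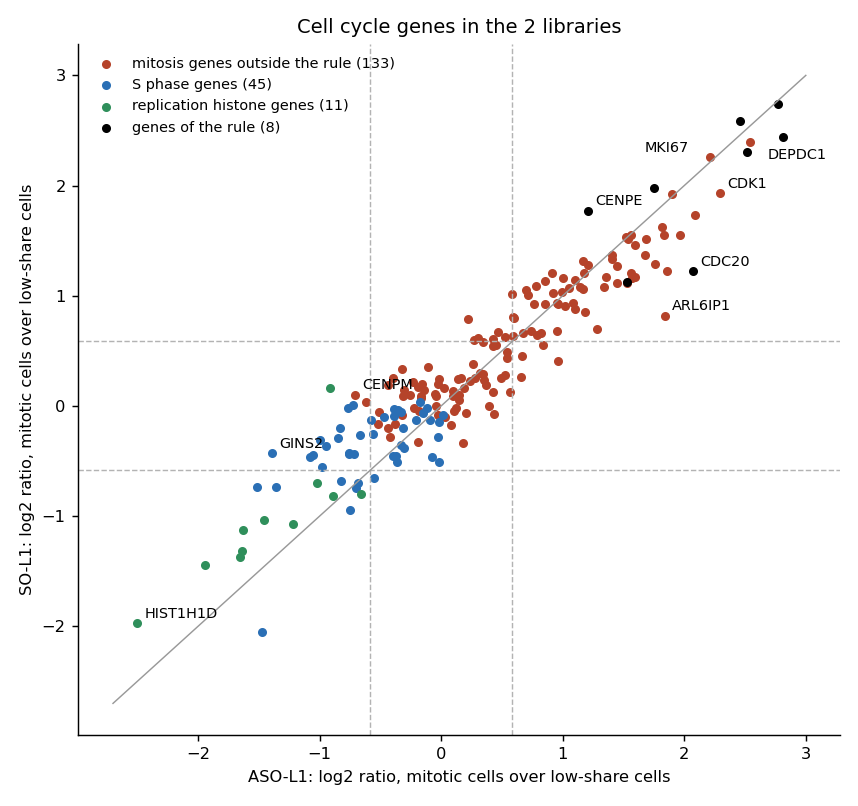
Log2 ratio of mitotic cells over the low-share cells in ASO-L1 (horizontal) and SO-L1 (vertical) for cell cycle genes with at least 200 UMIs in both comparisons. Dashed lines mark 1.5-fold and the grey line equal ratios. Mitosis genes spread to the upper right, S phase and histone genes to the lower left, and CDC20 and ARL6IP1 lie below the line of equal ratios while CENPE lies above it.

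Over all genes the libraries shared a part of their calls. In ASO-L1, 1043 genes were higher and 2073 lower in mitotic cells, and in SO-L1 280 and 752. Of the genes called higher, 127 were shared, which is 12.2% of the ASO-L1 genes and 45.4% of the SO-L1 genes, and outside the rule, mitosis and S phase lists 60 were, 6.17% of the ASO-L1 and 29.1% of the SO-L1 genes. Of the genes called lower 365 were shared, 17.6% of the ASO-L1 and 48.5% of the SO-L1 genes. A further 49 genes were higher in ASO-L1 and lower in SO-L1, 4.7% of the genes higher in ASO-L1. The reverse held for 6, 2.14% of the genes higher in SO-L1. Of all genes measured, 6.46% were higher and 12.8% lower in ASO-L1, and 1.91% and 5.12% in SO-L1. The 4.7% is thus near the 5.12% of all genes lower in SO-L1, and the 2.14% is below the 12.8% lower in ASO-L1. With the 8 genes of the rule left out, the 10 genes highest by the interval bound nearest to 1 in SO-L1 were mostly cell cycle genes, namely DEPDC1, MKI67, KIF23, CDK1, GAS2L3 (3.90-fold), FAM83D (3.43-fold), HJURP (3.43-fold), PIF1 (3.29-fold), TPX2 and LINGO2 (3.27-fold). HJURP loads CENPA onto centromeres, FAM83D is a spindle gene, GAS2L3 a cytokinesis gene and PIF1 a helicase. The lowest included DISC1FP1 (0.094 times), TKTL1 (0.140), CEACAM20 (0.184), SCHLAP1 (0.326), FBXL20 (0.404), CDKN1A (0.292), DDIT3 (0.355) and 3 linker histone genes.

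In ASO-L1 none of the 10 highest, ranked in the same way and again without the genes of the rule, was a gene of the mitosis list. KHDC1L, a gene of the 8C stage, held 125 CPM in mitotic cells against 5.37 in the low-share cells (23.3-fold, 21.7 to 25.0). CCNA1, a germline and embryonic cyclin, was 15.7-fold higher, the placental phosphatase genes ALPP and ALPG 15.6-fold and 11.4-fold, the 8C homeobox gene TPRX1 15.6-fold, MRLN 11.1-fold, the hormone genes GNRH1 and TRH 9.70-fold and 7.46-fold, STMN4 6.94-fold and the chemokine receptor gene CCR7 6.70-fold. With ALPG-rich cells, described next, left out, the log2 ratios of ALPP and TPRX1 turned to −0.93 and −0.37. In SO-L1 KHDC1L stood at 0.444 times, on fewer than the 200 UMIs that counted as measured, ALPG at 0.426 and CCNA1 at 1.36-fold. With every cell weighted alike in place of summed UMIs, the log2 ratio of ALPG in SO-L1 was 1.23. That weighting counts each shallow barcode richer in ASO-L1 as 1 cell. The lowest in ASO-L1 were 7 replication histone genes with NXPH2 (0.192 times), MEG8 (0.191) and GDA (0.306).

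Of these genes, KHDC1L, CCNA1 and TPRX1 were high in a minority of the ASO-L1 mitotic cells that was chosen by ALPG, with values given below. Cells with at least 10 UMIs of ALPG, a bound chosen after the values were seen, made up 152 of 655 ASO-L1 mitotic cells (23.2%, 20.02% to 26.63%) and 1 of 469 SO-L1 mitotic cells (0.213%, 0.005% to 1.18%). Their share in ASO-L1 was 1.83% in the lowest decile, 3.66% in decile 5, 13.9% in decile 8 and 11.3% in decile 9. In SO-L1 it stayed at or below 1.49% in every decile. With cells thinned to 23000 UMIs and a bound of 5, the shares among mitotic cells were 20.2% in ASO-L1 and 0.236% in SO-L1. Depth was similar, with a median of 67665 UMIs in the ALPG-rich mitotic cells and 64992 in the other 503. The mitochondrial share was 5.92% in ALPG-rich and 6.68% in other mitotic cells.

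The ALPG-rich cells passed the rule by another mix of the 8 genes. CDC20 held 619 CPM in them and 218 in the other ASO-L1 mitotic cells, against 76.5 in the low-share cells. CENPE held 10.8 in them and 54.0 in the others, against 18.6 in the low-share cells, so it was 0.580 times in the ALPG-rich and 2.91-fold in the other cells. TOP2A was 3.91-fold and 6.05-fold higher, and CENPF 2.41-fold and 3.69-fold. PLK1 (8.47-fold and 6.54-fold), UBE2C (7.18-fold and 6.68-fold) and AURKA (5.64-fold and 5.75-fold) differed less. Of the genes the rule did not use, CDK1 was 5.12-fold and 4.84-fold higher, MKI67 3.41-fold and 5.05-fold, and KIF11 1.04-fold and 1.65-fold. Of the 133 mitosis genes, 61 were higher and 15 lower in ALPG-rich cells, and 65 higher and 0 lower in the others. S phase genes had 23 and 18 of 45 lower. Of all genes measured, 18% were higher and 32.9% lower in the ALPG-rich cells, and 2.4% higher and 9.09% lower in the others.

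The same cells stood apart in cell identity. General pluripotency genes had 15 of 17 lower and 1 higher in ALPG-rich mitotic cells against the low-share cells (median −0.88) and 0 in either direction in the others (median −0.07), beside the 32.9% and 9.09% of all genes that were lower. SOX2 was at 93.3 CPM in the ALPG-rich cells and 255 in the others, against 267 in the low-share cells, POU5F1 at 641 and 942 against 987, and NANOG at 39.2 and 68.3 against 68.4. KHDC1L held 470 and 4.34 against 5.37, CCNA1 955 and 12.2 against 16.3, and TPRX1 49.7 and 0.615 against 0.851. The median over all ASO-L1 mitotic cells of the summed 8C genes was 102 CPM, near the 89.6 of the low-share cells.

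**Figure D4:**
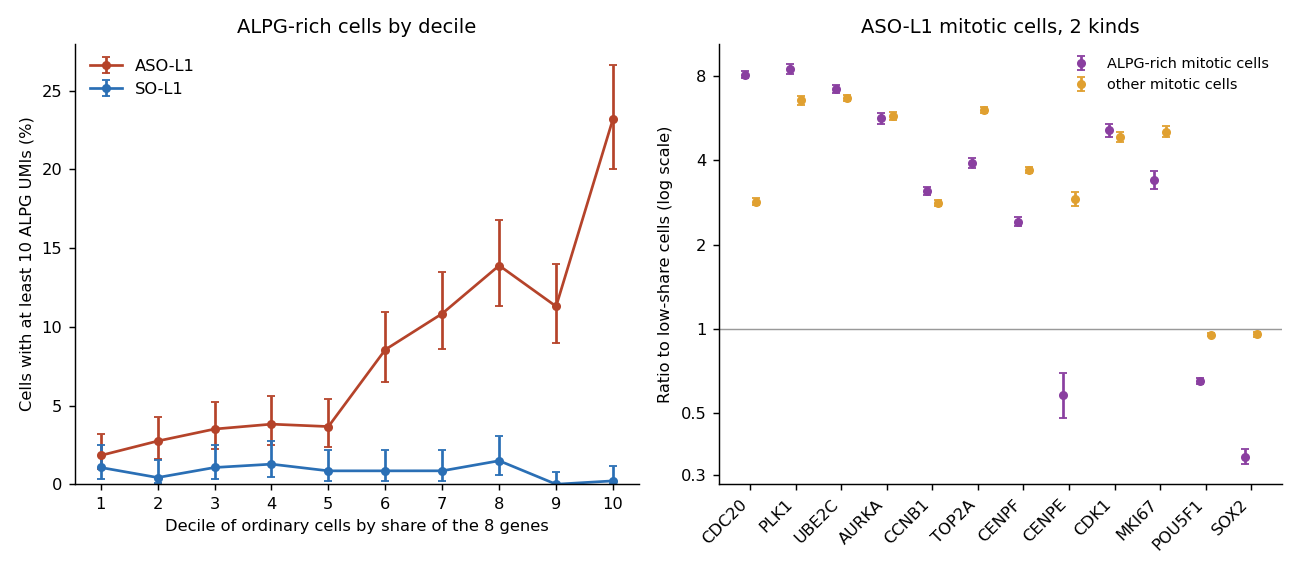
Left, the share of ordinary cells with at least 10 ALPG UMIs in each decile of the rule's share, ASO-L1 in red and SO-L1 in blue, with exact 95% intervals. Right, the ratio to the ASO-L1 low-share cells (log scale) in 152 ALPG-rich and 503 other ASO-L1 mitotic cells, with 95% counting intervals. CENPE, POU5F1 and SOX2 lie below 1 in the ALPG-rich cells, and CDC20 is 8.09-fold higher there and 2.85-fold in the others.

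With ALPG-rich cells and the barcodes described above left out of both libraries and the rule applied anew, 403 genes were higher and 1143 lower in 600 ASO-L1 mitotic cells (2.55% and 7.24% of 15789), and 289 and 716 in 444 SO-L1 mitotic cells (1.97% and 4.89%). The mitosis list then had 65 of 133 higher and 0 lower in ASO-L1 (median 0.53) and 66 and 0 in SO-L1 (median 0.58). CDC20 was 2.90-fold higher in ASO-L1 and 2.32-fold in SO-L1, and CENPE 3.12-fold and 3.48-fold, closer than before. ARL6IP1 remained apart at 3.15-fold and 1.75-fold.

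Stress genes were counted with and without the ALPG-rich cells, and list values given without these cells also leave out the barcodes described above. Of all genes measured, 6.46% were higher and 12.8% lower in ASO-L1, and 1.91% and 5.12% in SO-L1. Without those cells and barcodes it was 2.55% and 7.24% in ASO-L1, and 1.97% and 4.89% in SO-L1. In ASO-L1 mitotic cells 8 of 24 p53 targets were higher and 0 lower (median 0.32), and in SO-L1 mitotic cells 0 of 22 were higher and 9 lower (median −0.46). CDKN1A, which blocks cyclin-dependent kinases, held 38.0 CPM in ASO-L1 mitotic cells against 18.7 in the low-share cells, and 2.21 in SO-L1 mitotic cells against 7.56. In ASO-L1 it was 83.8 in the ALPG-rich and 22.0 in the other mitotic cells. Without ALPG-rich cells the p53 list had 1 of 23 higher and 1 lower in ASO-L1 (median 0.07) and 0 of 22 higher and 9 lower in SO-L1 (median −0.38), with CDKN1A at 1.18-fold and 0.258 times. GADD45A, a damage response gene, behaved alike, 2.29-fold higher in ASO-L1 and 0.524 times in SO-L1, and 1.15-fold and 0.566 times without those cells.

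Of the integrated stress response, 11 of 19 genes were higher and 0 lower in ASO-L1 (median 0.72), and in SO-L1 0 of 17 were higher and 1 lower (median −0.11). Over all genes, 6.46% were higher in ASO-L1, and 1.91% higher and 5.12% lower in SO-L1. Without the ALPG-rich cells and the barcodes named above, 2.55% were higher in ASO-L1 and 1.97% in SO-L1. DDIT3, the CHOP transcription factor, held 129 CPM in ASO-L1 mitotic cells against 53.8 in the low-share cells, and 3.84 in SO-L1 mitotic cells against 10.8. Its SO-L1 log2 ratio was 0.43 with every cell weighted alike, the shallow barcodes richer in ASO-L1 included. ATF5, a related factor, was 2.63-fold higher in ASO-L1 and 0.823 times in SO-L1, and TRIB3, a pseudokinase they induce, 2.92-fold and 0.812 times. Without ALPG-rich cells 5 of 19 remained higher in ASO-L1 (median 0.29), ATF5 at 2.08-fold and TRIB3 at 2.15-fold among them, and DDIT3 was at 1.46-fold. Heat shock genes had 7 of 12 higher in ASO-L1 (median 0.64) and 2 in SO-L1, and without ALPG-rich cells 5 in ASO-L1 (median 0.38) and 3 in SO-L1. With those cells in, the inducible HSPA1A was among these in both, at 3.95-fold and 2.82-fold, and DNAJA1, a co-chaperone gene, was 1.99-fold and 1.39-fold higher.

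Glycolysis genes had 0 of 18 past 1.5-fold in either library, ribosomal protein genes 0 of 83, and mitochondrially encoded genes 0 of 13. Nucleolar genes had 1 of 24 higher in ASO-L1 and 0 in SO-L1. G1 cyclins, kinases and inhibitors had 3 of 16 higher and 4 lower in ASO-L1 and 0 higher and 5 lower in SO-L1, and the lower ones in both included CCNE1, the S phase entry cyclin, at 0.663 and 0.659 times, and its activator E2F1 at 0.650 and 0.639 times. CCND1, a G1 cyclin, was at 1.003 and 1.30 times. Of the naive state genes, 7 of 15 were higher and 4 lower in ASO-L1, and 1 of 12 higher and 3 lower in SO-L1. In the ASO-L1 mitotic cells that were not ALPG-rich, 0 of 14 were higher and 4 lower. Of all genes measured, 6.46% were higher and 12.8% lower in ASO-L1, and 1.91% and 5.12% in SO-L1. Of the nuclear envelope genes, LBR, a receptor for lamin B, was 1.96-fold and 1.53-fold higher in ASO-L1 and SO-L1, and LMNA, lamin A, 2.90-fold and 0.881 times.

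The last comparison sets the mitotic cells of the libraries against each other. A common bound is needed to compare the share of cells above it, since the rule takes 10% of each. It ranks cells by RNA of 8 genes, some of whose levels also differed between the low-share cells. There 1 of the 8 was higher in ASO-L1, UBE2C at 70.6 CPM against 33.8 in SO-L1, and 1 was lower. The shares are therefore no count of cells in mitosis. At or above the SO-L1 bound lay 1235 of 6553 ordinary ASO-L1 cells (18.8%, 17.9% to 19.8%) and, as the rule sets it, 469 of 4696 SO-L1 cells (9.99%). With all cells thinned to 23000 UMIs the shares were 18.8% and 10.1%. Among cells that were neither ALPG-rich nor of the barcodes above, 17.8% of ASO-L1 cells lay at or above the SO-L1 bound. Without the 8 rule genes, on CDK1, CCNB2, TPX2, BIRC5, NUSAP1, HMMR, CKS2 and KIF20A, it was 16.5% for ASO-L1, and 60.8% of the ASO-L1 and 48.6% of the SO-L1 mitotic cells were chosen again.

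Between the mitotic cells, ASO-L1 had 2271 of 12883 genes (17.6%) higher by 1.5-fold or more and 2873 (22.3%) lower. Between the low-share cells it was 1610 of 16944 (9.5%) and 2031 (12%). Mitosis genes had 21 of 133 higher and 10 lower (median 0.02), shares close to or below those of all genes. UBE2C held 481 CPM in ASO-L1 and 225 in SO-L1 mitotic cells (2.13-fold, 2.07 to 2.20), but the low-share cells differed as much, at 70.6 and 33.8 (2.09-fold). CDK1 was 2.20-fold higher between mitotic cells and 1.71-fold between low-share cells, and CENPA 2.37-fold and 1.72-fold. ARL6IP1 was 2.40-fold higher between mitotic cells and 1.19-fold between low-share cells. Cytokinesis genes had 6 of 11 higher and 0 lower between mitotic cells and 0 in either direction between low-share cells, and 3 of 11 higher without the cells named above.

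Lower in ASO-L1 mitotic cells were CENPE at 0.417 times (0.618 between low-share cells), CDC16, a subunit of the anaphase-promoting complex, at 0.279 times (0.440), CENPM at 0.298 (0.524) and SMC1A, a cohesin gene, at 0.432. All of these were also lower in ALPG-rich than in other ASO-L1 mitotic cells, at 0.199 times for CENPE, 0.322 for CDC16, 0.380 for CENPM and 0.359 for SMC1A. With those cells left out the ratios between the libraries were 0.546, 0.377, 0.402 and 0.535 for the same genes. GINS2, a helicase subunit gene of S phase, stood at 0.264 times between mitotic cells, 0.515 between low-share cells and 0.360 without those cells.

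**Figure D5:**
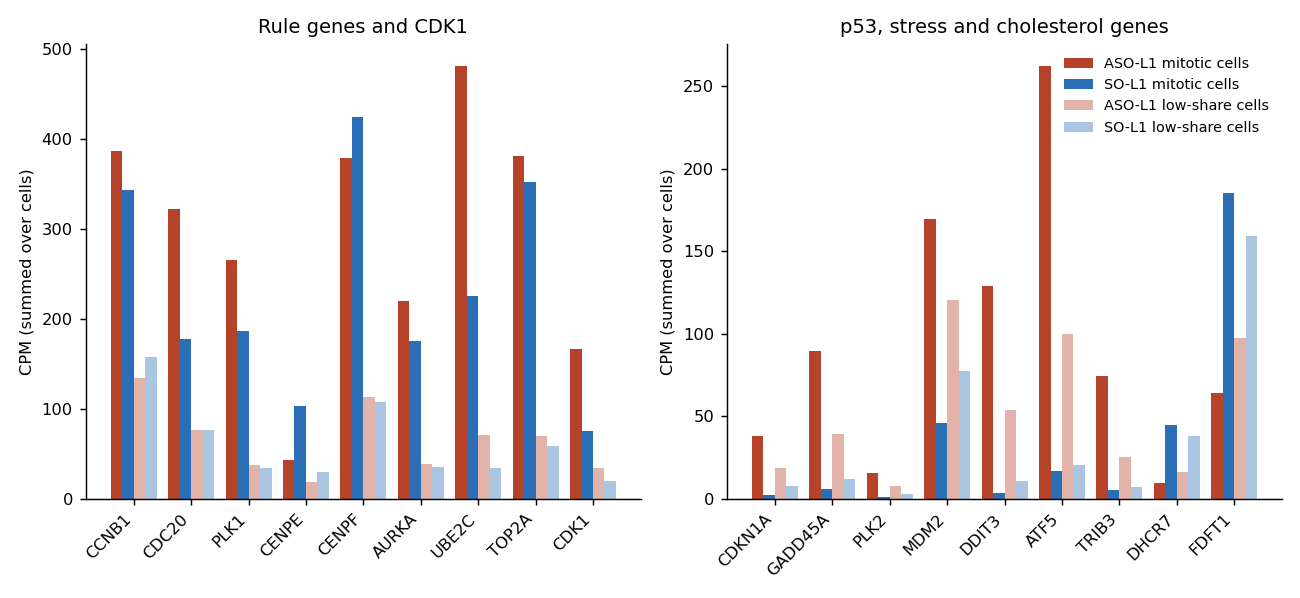
Summed CPM (from 0) in ASO-L1 and SO-L1 mitotic cells (full colour) and in the low-share cells (pale), each pair with ASO-L1 in red on the left and SO-L1 in blue, for the rule genes with CDK1 and for p53, stress and cholesterol genes. UBE2C is about as far apart between the low-share cells as between the mitotic cells in ratio, whereas CDC20 is equal between the low-share cells and 1.81-fold apart between the mitotic cells.

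Larger shares of genes differed in lists outside mitosis. Of the p53 targets, 14 of 21 were higher in ASO-L1 and 0 lower (median 1.42), with CDKN1A at 17.2-fold (13.0 to 23.3) and 2.47-fold between low-share cells, PLK2 at 15.0-fold and MDM2, the p53 ubiquitin ligase, at 3.66-fold. Between low-share cells 10 of 24 were higher (median 0.53). Without ALPG-rich cells 13 of 21 were higher (median 1.09), where 12.1% of all genes were, with CDKN1A at 11.8-fold. Of the integrated stress response, 11 of 18 genes were higher (median 1.55), with DDIT3 at 33.6-fold, ATF5 at 15.5-fold and TRIB3 at 13.3-fold. Between low-share cells 13 of 19 were higher (median 0.77), and without ALPG-rich cells 10 of 17 between mitotic cells (median 0.95). Cholesterol synthesis genes had 16 of 23 lower and 0 higher (median −0.83), with DHCR7, the last enzyme of the pathway, at 9.60 CPM in ASO-L1 and 44.8 in SO-L1, and FDFT1, squalene synthase, at 64.4 and 185. Between low-share cells 11 of 23 were lower. Without ALPG-rich cells 16 of 23 were lower between mitotic cells (median −0.76). Against their own low-share cells, 0 of 23 were then past 1.5-fold in both libraries. With ALPG-rich cells in, that comparison had 3 of 23 lower and 0 higher in ASO-L1 (median −0.25), where 12.8% of all genes were lower. In SO-L1 it had 0 higher and 0 lower.

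Among the 10 genes highest in ASO-L1 over SO-L1 mitotic cells were KHDC1L at 157-fold (99.3 to 265), CCR7 at 218-fold (85.1 to 802) and ALPG at 50.3-fold. CER1, a secreted inhibitor of Nodal, was at 60.9-fold, IL24 at 129-fold, STMN4 at 51.3-fold and NECTIN4 at 67.2-fold. The rest were ALPP at 51.9-fold, DDIT3 at 33.6-fold and TRH at 45.7-fold. The SO-L1 levels of the 10 genes were between 0.088 and 10.6 CPM. Of these, CER1 stood at 55.3-fold without ALPG-rich cells and KHDC1L at 21.7-fold. The log2 ratio of ALPP turned to −0.79 without ALPG-rich cells. It did not turn when the barcodes far richer in the other library were left out as well. The 10 lowest included COMMD1 at 0.1905 times, ARHGAP28 (0.173), POLA2 (0.180), SYN3 (0.213), RYR2 (0.203), DHCR7, PILRB (0.215), GNGT1 (0.220) and KCNQ3 (0.217). POLA2 is a subunit of the polymerase that primes DNA synthesis, SYN3 is a synaptic gene, and RYR2 and KCNQ3 ion channel genes.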

How the data were processed

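Both libraries were made with 10x 3′ chemistry. The deposited matrices hold whole UMI counts, not normalized. Cell Ranger 7.1.0 is named in the file headers, and the hg38 build in the submitters' processing notes. Not given in the sources used here were the annotation release and whether introns or strand entered the counts. Ordinary cells held 384579647 UMIs in ASO-L1 and 214174933 in SO-L1. Counts were summed over the cells of a set and divided by the set's total. Ratios carry exact conditional binomial (Clopper-Pearson) 95% intervals, which cover counting error only. A gene was measured from 200 UMIs over both sets. No doublet caller was run. Thinning drew 23000 UMIs per cell without replacement (seed 1) and left out 417 ASO-L1 and 463 SO-L1 cells that were shallower. The ratio and its interval were tested on simulated data.

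The members and the gene lists were chosen with earlier results of these data known. By the rule for names, the text gives the 10 genes highest and 10 lowest by the interval bound nearest to 1 (at least 500 UMIs), the 3 members of a list farthest from 1 and the 2 with most UMIs, and a set of cell cycle and pluripotency genes, with space for only some, and some genes are not reported here. Other genes named were picked for their known roles after their values were seen. Alternatives changed the share of cells taken, the filters, the depth, the scaling and the genes that chose the cells. Computation used Python 3.11.15, numpy 2.4.6, scipy 1.17.1, pandas 2.3.3 and matplotlib 3.10.9.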

Additional observations from a re-analysis of the deposited data

Results flagged for a closer look

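Cells with under 2% mitochondrial UMIs were outside the comparisons above but held mitosis RNA as well. Of these, 635 of 2531 ASO-L1 cells lay at or above their own library's bound (25.09%, 23.4% to 26.8%), and 139 of 1857 SO-L1 cells (7.485%, 6.33% to 8.78%). By the rule 10% of ordinary cells lie there in either library.

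Of the genes described, 7 had opposite directions in the libraries, past 1.5-fold in both, and the difference between the libraries was not tested. All 7 were higher in ASO-L1 and lower in SO-L1. Over all genes, 4.7% of those higher in ASO-L1 were lower in SO-L1, near the 5.12% of all genes measured that were lower there. Their log2 ratios of mitotic over low-share cells were 1.022 in ASO-L1 and −1.776 in SO-L1 for CDKN1A, 1.193 and −0.9319 for GADD45A, 1.076 and −1.524 for PLK2, 1.262 and −1.495 for DDIT3, 0.7993 and −0.5992 for JUN, 1.571 and −1.653 for CER1, and 3.515 and −1.23 for ALPG. With every cell weighted alike, DDIT3, CER1 and ALPG were above 0 in SO-L1 as well. That weighting counts each shallow barcode far richer in ASO-L1 as much as any other cell. Such barcodes were 15.8% of SO-L1 mitotic cells and 2.90% of its low-share cells, and their part in these values was not tested.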

How the results depend on the processing

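The median of the mitosis genes stayed above 0 in both libraries and that of the S phase genes below 0 under each of the 18 alternatives, 4 of which were chosen after seeing the data. Against all other ordinary cells the mitosis median in ASO-L1 was 0.3469 and the S phase median in SO-L1 −0.1955. Counts past 1.5-fold were 3116 in ASO-L1, 1032 in SO-L1 and 5144 between the mitotic cells. With thinned cells they were 1881 in ASO-L1 and 643 in SO-L1. With a minimum of 50 UMIs they were 4990 and 2452, with 1000 UMIs 1669 and 317, and 2856 between the libraries. The ASO-L1 count was 1670 with the highest 20% of cells and 1546 without ALPG-rich cells, with or without the barcodes richer in the other library. The SO-L1 count was 1835 by the mean of per-cell shares. The share of ASO-L1 cells at or above the SO-L1 bound was 18.85%. It was 12.83% with the highest 5%, 26.92% with the highest 20%, 19.83% with 2000 genes and a 10% mitochondrial limit, 17.89% without shared barcodes, 16.54% with 8 other genes, 16.78% without ALPG-rich cells and 17.77% without these and the richer barcodes. It was not run without mitochondrial genes in the total. Of 3770 gene values past 1.5-fold, 3748 had the same direction under the alternative. The log2 ratio turned for ARHGAP28 in ASO-L1 with the highest 20% (0.04121). In SO-L1 it turned by per-cell shares for ALPG (1.227), CER1 (0.3172), DDIT3 (0.4261) and S100A14 (1.413). In ASO-L1 it turned without ALPG-rich cells for ALPP (−0.9312), IL24 (−0.7167), TPRX1 (−0.3655), KLF17 (−0.6813), ATG9B (−0.3131), CCK (−0.5646) and RRAD (−1.004), and without both kinds of cell (−0.9317, −0.7171, −0.3659, −0.6817, −0.3135, −0.565 and −1.004 for the same genes). Between the libraries it turned without ALPG-rich cells for ALPP (−0.7943) and KLF17 (−1.017), and without both kinds for KLF17 (−0.8438). Beyond the cells left out, the cause was not tested. No paired analysis was possible because each group is 1 library. Intervals of genes with few UMIs are wide, so small ratios were not detectable there.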

Other observations

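Of the nuclear envelope genes, 3 of 15 were higher in ASO-L1 mitotic cells than in low-share cells and 1 of 14 in SO-L1 mitotic cells. For these and the tubulin and actin genes below, the share over all genes was 6.46% higher in ASO-L1 and 1.91% in SO-L1. Near equal in ASO-L1 and SO-L1 were TMPO, a lamin-binding gene (1.15-fold and 1.14-fold), and the nuclear pore gene NUP133 (1.02-fold and 1.04-fold). Of 12 tubulin and actin genes, 2 were higher in ASO-L1 and 0 in SO-L1, namely TUBA1C (2.11-fold and 1.28-fold) and TUBB4B (1.71-fold and 1.34-fold).

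Against low-share cells, 11 of 15 naive state genes were higher and 4 lower in the ALPG-rich mitotic cells of ASO-L1, and 0 of 14 higher and 4 lower in the others. Of the silencing genes 2 of 15 were higher and 6 lower in the ALPG-rich cells, and 0 higher and 1 lower in the others. Of all genes 18% were higher and 32.9% lower in the ALPG-rich cells, and 2.4% and 9.09% in the others. KLF17, a naive state transcription factor, was 46.5-fold higher than in low-share cells in the ALPG-rich mitotic cells and 0.425 times in the others. Among further genes, CCK was 18.9-fold, S100A14 17.2-fold, ATG9B 14.1-fold and RRAD 12.3-fold higher in the ALPG-rich cells, and KLF12 stood at 0.133 times. DNMT3B, a DNA methyltransferase, stood at 0.195 times in the ALPG-rich and 0.695 in the other mitotic cells, and EZH2, the PRC2 methyltransferase, at 0.266 and 0.734 times. Of 9 primed state genes 7 were lower in the ALPG-rich mitotic cells and 0 in the others.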
